A study of Mus musculus with 8 samples.

Results

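The Egr, Nr4a and Arc activity genes were followed in the mouse brain after permanent occlusion of the middle cerebral artery (PMCAO), a model of focal ischemic stroke, and after injection of the neuropeptide PACAP38. The 10 genes were Egr1, Egr2, Egr3, Egr4, Nr4a1, Nr4a2, Nr4a3, Npas4, Arc and Homer1, of 27962 gene names on the array. Their probes were found by gene name, but the genes were chosen with earlier results of these data known. They were covered by 13 of the 41174 probes, 3 for Homer1, 2 for Egr3 and 1 for each other gene. Male C57BL/6J mice, 8 to 12 weeks old, had PMCAO of the right side by an intraluminal filament or a sham operation that exposed the artery only, followed at once by 1 pmol PACAP38 in 1 µl or by 1 µl of saline (0.9% NaCl) into the cerebral ventricle. The right (ipsilateral, in PMCAO ischemic) hemisphere was taken 6 h or 24 h later, without the olfactory bulb and the cerebellum per the methods. The labels name no transgene or deletion, and the PMCAO mice were chosen for neurological grade before pooling.

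Each of the 8 combinations of operation, injection and time was 1 pool of 3 mice, and PACAP38 and saline pools of the same operation and time were hybridized together on 2 arrays with exchanged dyes. The 2 arrays held the same RNA, so every PACAP38 over saline value is 1 pool against 1 pool, no test could be made within a comparison, and the spread between the arrays is technical. The 4 arrays of 6 h were on 1 slide and the 4 of 24 h on another, so time and slide cannot be told apart. The sham 6 h array with PACAP38 in Cy3 stood apart, with 10.7% of its spots marked as outliers by the scanner software against 0.323% to 3.09% on the other 7. Marked spots were left out, and values from them are named as such. In whole hemispheres, fewer cells of a type and less RNA per cell cannot be told apart.

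These are immediate early genes. Calcium entry and cyclic AMP in an active neuron reach the kinases that phosphorylate CREB and the ternary complex factors, and these proteins, already bound at CRE and CArG motifs in the promoters, start transcription within minutes without new protein synthesis. The Egr proteins are zinc finger transcription factors, the Nr4a proteins are orphan nuclear receptors, and Npas4 is a bHLH-PAS factor that responds to calcium with high selectivity. Arc and the short form of Homer1 act at the synapse itself, Arc in the removal of AMPA receptors and Homer1a in loosening the Homer scaffold that ties metabotropic glutamate receptors to the postsynaptic density. PACAP38 acts on receptors that raise cyclic AMP, and several of these genes are classic cyclic AMP targets in cultured cells.

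RefSeq promoter windows (GRCm38.p6, 250 bases before to 50 after each transcript start) were read for 7 of the genes (Egr1, Egr3 and Arc not used here). Stretches that hold a motif are shown because CREB and SRF, the partner of the ternary complex factors, bind such letters. The core of the CRE, TGACG on either strand (CGTCA when read on the other), was in the windows of 7 of 7 genes, in 9 of their 12 windows, against 20.9% of all 32544 distinct windows. The Egr2 windows with the core overlap and hold the same cores, so the 9 windows are not all separate stretches. A gene has up to 5 windows here, so the count of genes is not on the scale of that share. A CArG box, the motif bound by SRF, was in 1 of the 7 genes, Egr2 (4 windows), against 1.64% of all windows. The full palindrome TGACGTCA, which contains that core, was in none of the 12 windows (1.8% of all), nor was the Egr motif GCGTGGGCG (0.618%) or the Nr4a motif AAAGGTCA (1.52%). These matches describe letters in a window and no binding was measured. The stretches below hold the motifs in capitals (CGTCA and TGACG for the CRE core, CCATATATGG for the CArG box of the printed Egr2 stretch), each written 5′ to 3′ on the gene's strand.
Egr2, chr10:67537746-67537830, plus strand: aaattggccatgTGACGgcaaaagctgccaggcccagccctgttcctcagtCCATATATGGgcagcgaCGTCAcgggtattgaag
Egr4, chr6:85513682-85513778, minus strand: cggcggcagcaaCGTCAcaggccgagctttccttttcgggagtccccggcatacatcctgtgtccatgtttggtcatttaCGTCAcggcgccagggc
Nr4a2, chr2:57124098-57124215, minus strand: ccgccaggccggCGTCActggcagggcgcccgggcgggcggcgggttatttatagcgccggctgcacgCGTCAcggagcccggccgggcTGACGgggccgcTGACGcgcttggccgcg
Nr4a3, chr4:48045062-48045174, plus strand: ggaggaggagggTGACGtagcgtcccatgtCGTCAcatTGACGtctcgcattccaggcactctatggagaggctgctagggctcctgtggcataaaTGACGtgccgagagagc
Npas4, chr19:4990124-4990162, minus strand: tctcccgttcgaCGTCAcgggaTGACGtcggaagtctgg
Homer1, chr13:93303689-93303756, plus strand: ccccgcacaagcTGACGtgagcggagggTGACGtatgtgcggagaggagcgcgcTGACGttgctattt
The Nr4a1 window held 4 CRE cores over a longer stretch and is not printed. Another Egr2 window, without a CRE core, held a different CArG box (CCTTTTTTGG, within chr10:67537482-67537515) and is not printed either. The Egr2 stretch is the only one of the 6 printed that carries both kinds of motif.

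In GRCm38.p6 the Egr genes lie apart from each other, Egr1 at chr18:34861207-34864956, Egr2 at chr10:67534469-67542188, Egr3 at chr14:70077317-70082613 and Egr4 at chr6:85511121-85513589. Nr4a1 lies at chr15:101253902-101274795, Nr4a2 at chr2:57106830-57124003 and Nr4a3 at chr4:48045078-48086447. Npas4 lies at chr19:4984353-5003439, Arc at chr15:74669081-74672570 and Homer1 at chr13:93303757-93405129. Of the 13 probes, 11 were well above background in all 16 channels. The second Egr3 probe was so in 12 of the 16 and the Nr4a3 probe in 2, so that Nr4a3 was hardly measured in any pool.

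PACAP38 was compared with saline first, to ask which activity genes differed with the peptide in each operation and at each time. The largest changes were in PMCAO mice at 24 h, where Egr1, Egr2, Egr4, Nr4a1 and Npas4 were all lower with PACAP38, from 0.362-fold (Egr2) to 0.714-fold (Egr4), each on both dye-swapped arrays. In the same RNA, Nr4a2 was at 1.46-fold and Homer1 at 1.39-fold of saline, both under the 1.5-fold threshold for an increase. At 6 h after PMCAO, Egr1, Egr2, Nr4a1 and Npas4 were above saline and Egr4 was slightly below it. Among them only Egr2, at 1.58-fold, was past a threshold, by its mean but not on both arrays. Arc, which changed little at 24 h, was at 1.85-fold there from 1 unmarked array. In the sham hemispheres no gene with an unmarked value was past a threshold at either time. Arc and the brightest Homer1 probe had no unmarked value in sham mice at 6 h.

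Counted over genes, with the brightest probe for each, 0 of 10 were above 1.5-fold and 5 of 10 below 0.75-fold in PMCAO mice at 24 h, all 5 of them on both arrays. Over all probes of the array, 2.99% were above 1.5-fold and 8.18% below 0.75-fold in that comparison, and 3.75% were below on both arrays. The median of the 10 genes was -0.44 on the log2 scale beside 0.00 for all probes, with 2 genes above 0 and 8 below. In PMCAO mice at 6 h, 3 of 10 genes were above 1.5-fold (Arc, Egr2 and the dim Nr4a3) and 0 below, with a median of 0.52, beside 5.41% and 6.9% of all probes. Of the 3, only the dim Nr4a3 was above on both arrays. In sham mice at 24 h it was 0 of 10 in either direction, with a median of 0.17, beside 1.75% and 3.87% of all probes. In sham mice at 6 h, 8 genes had an unmarked value and 0 of these were past either threshold, with a median of 0.05, beside 3.98% and 7.48% of all probes.

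**Figure D1:**
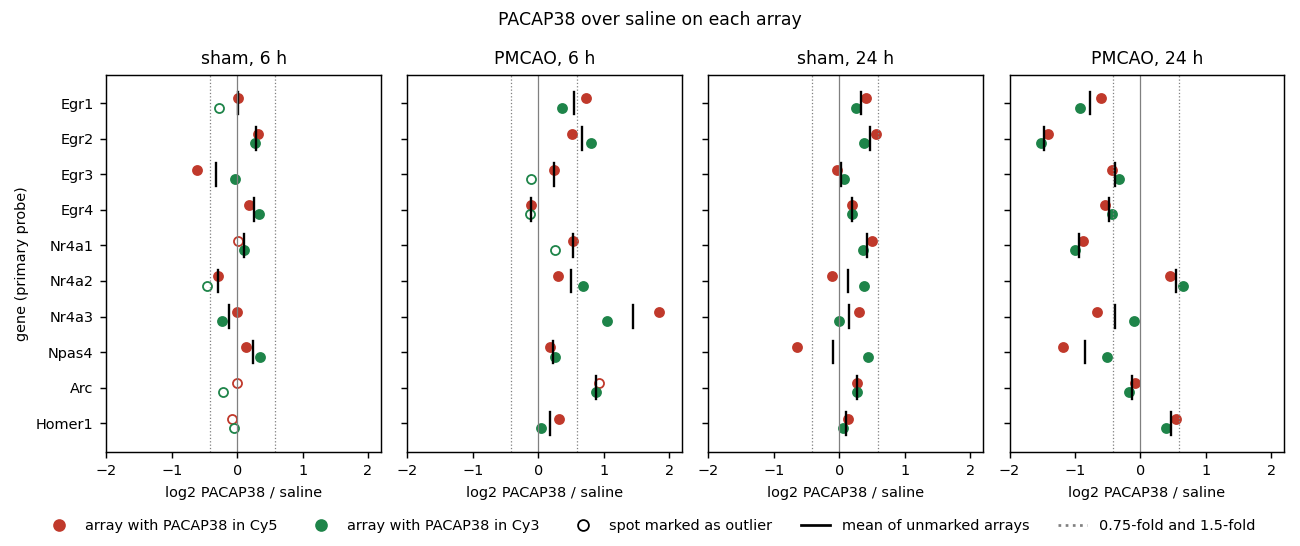
PACAP38 over saline (log2 of the scanner software's ratio, turned to PACAP38 over saline) for the primary probe of each of the 10 genes in the 4 comparisons; each point is 1 array, open where the spot was marked as an outlier, the bar is the mean of unmarked arrays and the dotted lines are 0.75-fold and 1.5-fold. In PMCAO mice at 24 h both points of Egr1, Egr2, Egr4, Nr4a1 and Npas4 lie below the 0.75-fold line while those of Nr4a2 and Homer1 lie above 0.

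Egr2, a zinc finger factor best known from hindbrain and Schwann cell development and induced by activity in the cortex, had the widest swing. Its PACAP38 over saline log2 ratio was 0.30 and 0.28 on the 2 arrays of sham mice at 6 h, 0.51 and 0.81 in PMCAO mice at 6 h (1.58-fold), 0.56 and 0.37 in sham mice at 24 h (1.38-fold), and -1.41 and -1.53 in PMCAO mice at 24 h (0.362-fold). It was therefore above 0 on all 6 arrays of the first 3 comparisons and below 0 on both of the last. The array carries the Egr2 probe in 10 spots, which gives a measure of the technical spread within an array. In PMCAO mice at 24 h the 10 spots gave -1.41 ± 0.02 (SD, n = 10 spots) and -1.53 ± 0.04 (SD, n = 10 spots), and in sham mice at 24 h 0.56 ± 0.03 and 0.37 ± 0.03 (SD, n = 10 spots each). The spots at 6 h were wider, 0.30 ± 0.07 (SD, n = 9 unmarked spots) and 0.28 ± 0.08 (SD, n = 8 unmarked spots) in sham mice and 0.51 ± 0.13 and 0.81 ± 0.08 (SD, n = 10 spots each) in PMCAO mice. The highest spot of PMCAO mice at 24 h was -1.37, below the lowest spot of every other comparison, 0.14. These spots share 1 pool of RNA per group and say nothing of the spread between mice.

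**Figure D2:**
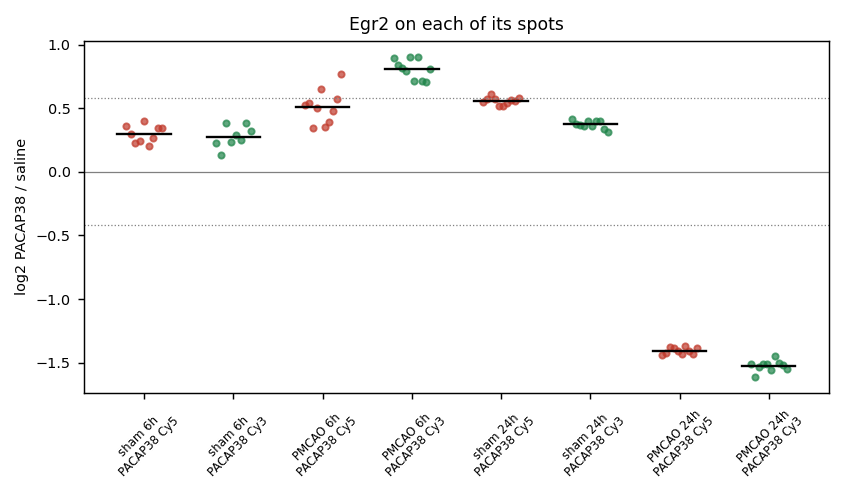
Every unmarked Egr2 spot on the 8 arrays, as log2 of PACAP38 over saline; each point is 1 of up to 10 spots of the same probe on an array. The spots of PMCAO mice at 24 h lie between -1.61 and -1.37 and those of all other arrays above 0.

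Egr1, the most studied activity-induced factor of the family, went the same way with smaller sizes. Its ratio was 0.73 and 0.36 in PMCAO mice at 6 h (1.46-fold), 0.40 and 0.25 in sham mice at 24 h (1.25-fold) and -0.60 and -0.93 in PMCAO mice at 24 h (0.589-fold). In sham mice at 6 h the single unmarked array gave 0.01, and the marked spot -0.28. The Egr1 ratio was thus positive on every unmarked array outside PMCAO at 24 h. Egr4, a factor with few known targets, was 0.18 and 0.34 in sham mice at 6 h, -0.11 in PMCAO mice at 6 h (1 array, the marked spot -0.13), 0.19 and 0.19 in sham mice at 24 h and -0.54 and -0.44 in PMCAO mice at 24 h (0.714-fold). Egr3, which is induced more slowly and needs MAP kinase signalling, gave -0.44 and -0.33 in PMCAO mice at 24 h (0.765-fold), just short of the 0.75-fold threshold. Its dim second probe gave -0.35 and -0.88 there (0.652-fold), past the threshold by its mean but on 1 array only. In the other comparisons the first Egr3 probe gave -0.61 and -0.03 in sham mice at 6 h, 0.23 in PMCAO mice at 6 h (1 array, the marked spot -0.11) and -0.03 and 0.07 in sham mice at 24 h. All 4 Egr genes were on the lower side with PACAP38 in PMCAO mice at 24 h, and the order of the sizes was Egr2, Egr1, Egr4, Egr3, with the arrays of Egr4 and Egr3 touching at -0.44.

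The 3 Nr4a receptors did not go together at 24 h. Nr4a1 (Nur77), a constitutively active receptor without a known ligand, gave 0.54 in PMCAO mice at 6 h (1 array, the marked spot 0.25), 0.50 and 0.36 in sham mice at 24 h (1.34-fold) and -0.88 and -0.999 in PMCAO mice at 24 h (0.522-fold). In sham mice at 6 h its unmarked array gave 0.10. Nr4a2 (Nurr1), which midbrain dopamine neurons need, gave -0.29 in sham mice at 6 h (1 array, the marked spot -0.45), 0.30 and 0.69 in PMCAO mice at 6 h (1.41-fold), -0.11 and 0.37 in sham mice at 24 h and 0.45 and 0.65 in PMCAO mice at 24 h (1.46-fold). There, both Nr4a1 arrays lay below all others of that gene and both Nr4a2 arrays above 0. Nr4a3 (Nor1) was well above background in 2 of 16 channels, and its processed log2 ratios in PMCAO mice at 6 h, 1.84 and 1.06, came from signals at the floor. With the floor taken into account, the PACAP38 pool of PMCAO mice at 6 h was at least 1.02-fold brighter than its saline pool, and normexp background correction put the difference at 0.02. At 24 h no channel measured Nr4a3 well above background.

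Npas4, which is almost specific to neurons and responds to calcium, gave -1.19 and -0.51 in PMCAO mice at 24 h (0.556-fold). Both arrays were past the threshold, but they differed by more than those of any other gene that was past it there. It gave 0.14 and 0.34 in sham mice at 6 h, 0.18 and 0.26 in PMCAO mice at 6 h, and -0.65 and 0.44 in sham mice at 24 h, where the 2 arrays of the same RNA had opposite signs.

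Arc, whose protein forms capsid-like particles that carry its own mRNA, was the gene most above saline in PMCAO mice at 6 h among those well above background. Its ratio was 0.88 on the unmarked array and 0.92 on the marked spot (1.85-fold from the first). In PMCAO mice at 24 h it was -0.09 and -0.17 (0.916-fold), in sham mice at 24 h 0.27 and 0.27 (1.21-fold), and in sham mice at 6 h both spots were marked, at 0.00 and -0.22. Arc was thus not among the genes that were past the threshold at 24 h. Homer1 was read by 3 probes, whose positions on the array's own build (mm7) were chr13:90466231-90466290 at the 3′ end, a probe spanning from chr13:90368178 to chr13:90404690 across an intron, and chr13:90367979-90368038. In PMCAO mice at 24 h they gave 0.55 and 0.39, 0.24 and 0.66, and 0.34 and 0.46, so all 6 values were above 0 (means 1.39-fold, 1.37-fold and 1.32-fold) and none of the means was past 1.5-fold. The probe annotation does not say which of them reads the activity-induced short form, so no Homer1 value here can be taken as that of the short form. Counts over genes and the figures use the brightest probe, the one at the 3′ end. In the other comparisons the means of the Homer1 probes lay between 0.882-fold and 1.17-fold.

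A fit over the 4 comparisons asked whether any gene differed with PACAP38 regardless of operation and time. It took the 4 pairs of pools as replicates (limma, 3 residual degrees of freedom). Of 36121 probes with a value on every array, 0 passed an adjusted p of 0.05 and 1782 (4.93%) an unadjusted p of 0.05. The members entered with 6 probes of 5 genes, of which 0 passed in either way, and the lowest adjusted p was 0.871 by limma. With marked spots kept, all 13 probes entered, 0 passed by limma and the lowest adjusted p was 0.873. For Egr2 the mean over the 4 pairs was -0.01 with a standard error of 0.44, the 3 positive pairs cancelling the negative one.

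PMCAO was compared with sham next, at each time and within each injection, by the same dye across arrays. The scale here is log2 of the processed signal minus the 75th percentile of its channel. These comparisons share pools with the ones above, since the PACAP38 pool of PMCAO mice at 24 h enters both, so they are given side by side and not as separate evidence. At 6 h, Npas4 stood far above all other members, near 9-fold of sham in both injections (9.05-fold with saline and 8.88-fold with PACAP38). At 24 h the family was lower than in sham mice, with 7 of 10 genes below 0.75-fold with saline and 8 of 10 with PACAP38, all of them in both dyes, and 0 above 1.5-fold. Among all probes the shares with saline at 24 h were 9.56% above, 13.3% below and 7.58% below in both dyes, and with PACAP38 at 24 h 6.39%, 8.19% and 3.2%. The median of the genes was -0.52 with saline and -0.93 with PACAP38, beside 0.02 and 0.03 over all probes. Markers of neurons were also lower in that comparison with saline: 8 of 9 of striatal medium spiny neurons (median -0.78) and 5 of 8 of cortical and hippocampal excitatory neurons (median -0.46) were below 0.75-fold, and 0 of 8 general neuron markers (median -0.12). With PACAP38 it was 1 of 9 (median -0.29), 1 of 8 (median -0.16) and 0 of 8 (median -0.16). Their part in the values of the activity genes was not tested.

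At 6 h the counts were 2 above and 1 below of 7 genes with unmarked values with saline, and 4 above and 0 below of 7 with PACAP38. Among all probes, 32% were above and 20.7% below with saline and 31.4% and 16.5% with PACAP38, and the medians of all probes were 0.25 and 0.30. Past the threshold upward in both dyes were 13% of all probes with saline and 9.47% with PACAP38. The comparison of operations at 6 h rests on the sham array that stood apart. On that array Egr3 had processed signals of 12979 and 12722 where the same RNA gave 2687 and 1763 on the other sham array, and Egr4 28041 and 35384 where it gave 9389 and 10611. The genes above were Npas4 and Egr4 with saline and Npas4, Egr3, Egr4 and the dim Nr4a3 with PACAP38, and the gene below was Egr2 with saline. Egr3 and Egr4 rest on 1 unmarked dye each there: with PACAP38 Egr3 gave 1.22 in Cy5 and -1.28 from the marked spot in Cy3, and Egr4 0.98 and -1.01. The mean turned to -0.03 for Egr3 and -0.02 for Egr4 when marked spots were kept. Egr2 with saline gave -0.02 in Cy3 and -0.94 in Cy5, and with PACAP38 -0.42 and 0.20. For Egr1, Nr4a1, Nr4a2, Arc and the first Homer1 probe, 1 or both dyes held a marked spot at 6 h, and Npas4 was the gene well above background whose unmarked dyes both lay past a threshold.

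The Npas4 signals were apart at 6 h. Its processed signals ran from 501 to 685 over the 4 channels of sham mice at 6 h, from 4289 to 5679 over the 4 of PMCAO mice at 6 h, and from 242 to 553 over the 8 channels at 24 h. The PMCAO channels at 6 h thus lay wholly above the rest. Its log2 level in the 8 pools was -0.86 and -0.61 in sham mice at 6 h (saline, then PACAP38), 2.32 and 2.54 in PMCAO mice at 6 h, -1.43 and -1.53 in sham mice at 24 h and -1.04 and -1.91 in PMCAO mice at 24 h. The difference from sham at 6 h was 3.18 in Cy3 and 3.18 in Cy5 with saline, and 3.07 and 3.23 with PACAP38, but these sizes depend on the scaling of the array that stood apart. With the percentile taken over unmarked spots (chosen after the data were seen) they were 3.14 and 2.45 with saline and 2.37 and 3.20 with PACAP38, the lower value of each from that array. With median scaling they were 3.14 and 2.66, and 2.59 and 3.19. At 24 h it was 0.27 and 0.50 with saline and -0.46 and -0.30 with PACAP38.

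In the limma fit on the 4 differences between PMCAO and sham, with 1 mean per time and 2 residual degrees of freedom, Npas4 at 6 h was 3.16 higher in PMCAO with a standard error of 0.21 and an adjusted p of 0.00365. At 24 h its mean was 0.00 with an adjusted p of 0.998 by limma, and the change between the times was -3.16 with a standard error of 0.29 and an adjusted p of 0.0128. The 2 differences of a time come from the same arrays, and 52.1% of all probes passed at 6 h, 2.36% at 24 h and 28% for the change between the times, so passing at 6 h sets no gene apart. Without replicate 2, the orientation that includes the sham array that stood apart, 144 of all probes passed at 6 h in place of 18833. Npas4 was among them with an adjusted p of 0.0401 by limma, while its change between the times had an adjusted p of 0.0531. Over all settings the adjusted p of Npas4 at 6 h ran from 7.61e-05 to 0.0401 by limma.

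Of the other 5 member probes in that fit, 2 passed at 6 h, the second Egr3 probe at 1.20 (limma adjusted p of 0.00875) and the second Homer1 probe at 0.62 (limma adjusted p of 0.0227). The Egr3 value came from a dim probe and was 0.03 with an adjusted p of 0.718 by limma after normexp background correction and Aquantile scaling. Both probes also passed for the change between the times, at -2.28 and -1.13, with adjusted p-values of 0.0136 and 0.0230 by limma. After normexp and Aquantile the change of the Egr3 probe was -0.28, with an adjusted p of 0.0418 by limma. Without replicate 2 neither passed at 6 h by limma, although the differences were larger, 1.93 for Egr3 (adjusted p of 0.106) and 0.87 for Homer1 (adjusted p of 0.128). The third Homer1 probe gave -0.43 at 6 h with an adjusted p of 0.0928 by limma, so the probes of this gene did not go one way at that time. At 24 h 0 of the 6 member probes passed and 3 had an unadjusted p under 0.05, as had 21.1% of all probes, with Egr2 at -1.74 and an adjusted p of 0.148 by limma.

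At 24 h the 2 dyes lay close, and the genes are given by size. The dyes carry the same RNA, so their closeness is technical and the order is that of 1 pool against 1 pool. With saline, Nr4a2 was furthest below sham, -1.20 and -1.22 in the 2 dyes (0.432-fold), followed by Homer1 at -0.86 and -0.76 (0.571-fold) and Egr2 at -0.76 and -0.77 (0.589-fold). Egr4, Egr1, Egr3 and Arc followed with means from -0.54 to -0.51, and the values of their dyes overlapped. Nr4a1 was at 0.02 and -0.17 and Npas4 at 0.27 and 0.50, neither past a threshold. With PACAP38 the order was another. Egr2 was furthest below sham at -2.68 and -2.74 (0.153-fold), then Egr1 at -1.68 and -1.59 (0.322-fold) and Nr4a1 at -1.54 and -1.37 (0.365-fold). Egr4 followed at 0.425-fold, Egr3 at 0.522-fold, Arc at 0.527-fold, Nr4a2 at 0.572-fold and Homer1 at 0.731-fold. Nr4a1 was the gene that was at the sham level with saline and past the threshold with PACAP38, and Nr4a2 and Homer1 were the ones nearer to sham with PACAP38 than with saline. These differences between the injections are the PACAP38 over saline values of the 2 operations in another form, and they were not tested.

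By level, each of the 10 genes had its lowest pool in PMCAO mice at 24 h, which was the PACAP38 pool for 8 of them (the dim Nr4a3 included) and the saline pool for Nr4a2 and Homer1. Egr2 was at 1.61 and 1.90 in sham mice at 6 h (saline, then PACAP38), 1.13 and 1.79 in PMCAO mice at 6 h, 1.21 and 1.68 in sham mice at 24 h and 0.45 and -1.03 in PMCAO mice at 24 h. Egr1 was at 4.75 and 4.77, 4.63 and 5.17, 4.25 and 4.58, and 3.72 and 2.95 in the same order. Nr4a1 was at 4.56 and 4.66, 4.74 and 5.29, 4.24 and 4.67, and 4.16 and 3.21. For these 3 genes the PACAP38 pool of PMCAO mice at 24 h was the lowest of the 8, and for Egr1 and Nr4a1 the PACAP38 pool of PMCAO mice at 6 h was the highest. Nr4a2 was at 2.12 and 1.84, 1.97 and 2.46, 1.67 and 1.81, and 0.46 and 1.00, so that its lowest pool was the saline one. Arc was at 4.02 and 4.89 in PMCAO mice at 6 h, 3.85 and 4.12 in sham mice at 24 h and 3.33 and 3.19 in PMCAO mice at 24 h. Levels of different probes are not set against each other here, since the brightness of a probe depends on its sequence.

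**Figure D3:**
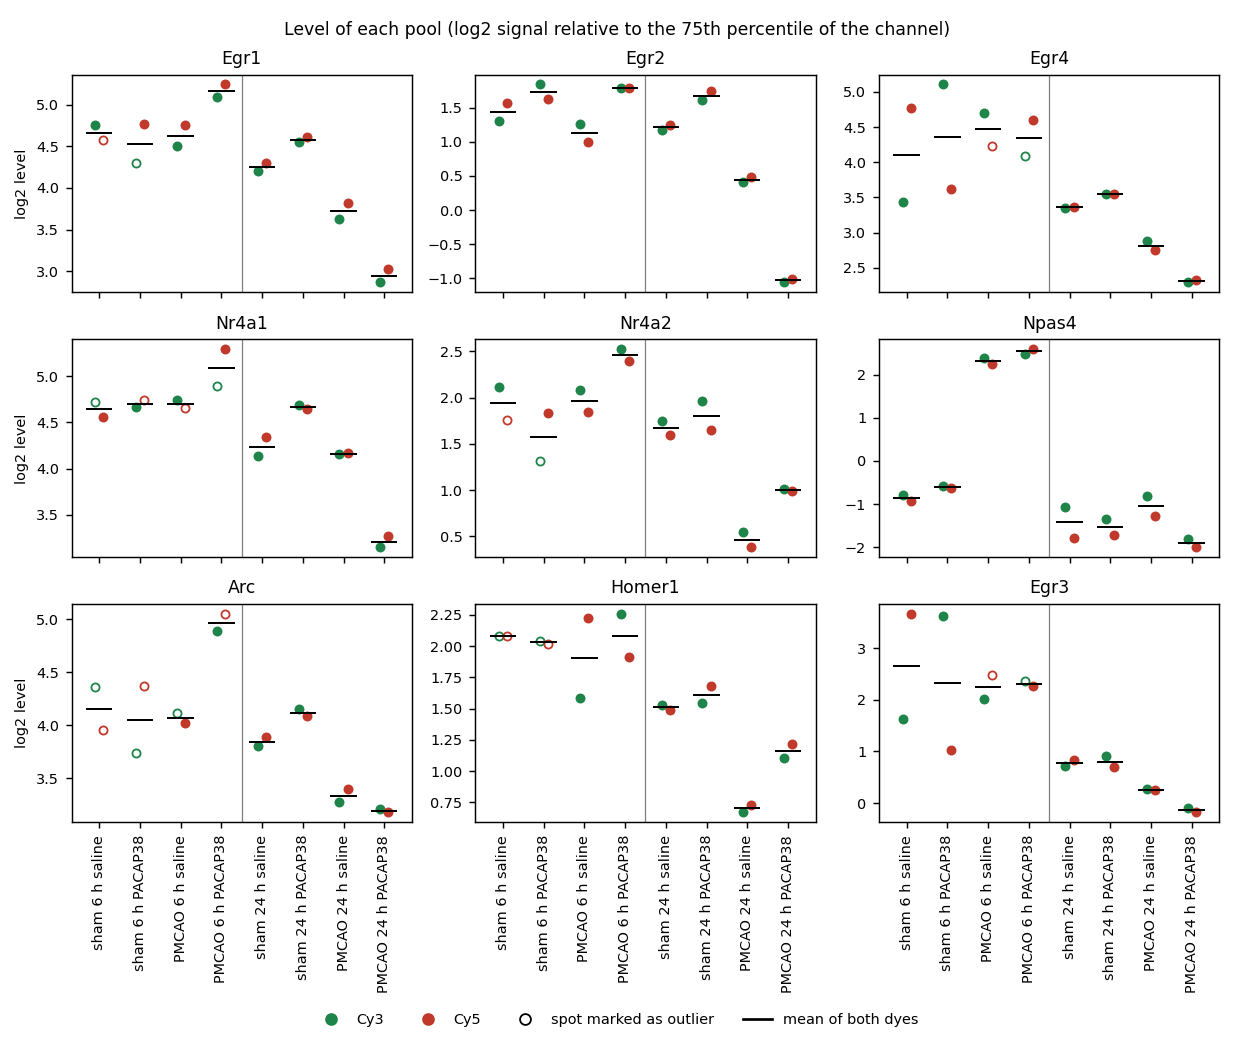
Level of the primary probe of each gene in the 8 pools (log2 of processed signal minus the 75th percentile of its channel, 9 genes, without the dim Nr4a3); each point is 1 dye, open where the spot was marked as an outlier, the bar is the mean of both dyes with marked spots kept, and a line parts 6 h from 24 h. Npas4 is above its other pools in both PMCAO pools of 6 h, and Egr2 is lowest, at -1.03, in the PACAP38 pool of PMCAO mice at 24 h.

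Other activity-regulated genes were read from lists, which were also chosen with earlier results of these data known. Of 23 activity-regulated transcription factors and feedback genes with a probe, 17 were below 0.75-fold and 0 above 1.5-fold with PACAP38 in PMCAO mice at 24 h, with a median of -0.75. Of 17 effector genes it was 8 and 0, with a median of -0.39. Of 14 partners and upstream factors of the Egr and Nr4a proteins (NAB corepressors, SRF, CREB, MEF2, RXR), 1 was above and 1 below, with a median of -0.03, and of 10 synaptic partners of Homer and Arc, 0 were past either threshold, with a median of 0.14. Fos, the AP-1 subunit, was lowest at -1.62 and -2.33 on the 2 arrays (0.254-fold). Cyr61, a secreted matricellular protein, was at -1.96 and -1.64 (0.287-fold) and Gem, a small GTPase that dampens calcium channels, at -1.57 and -1.79 (0.312-fold). Rxrg, a retinoid receptor that pairs with Nr4a1 and Nr4a2 and is strong in the striatum, was above at 0.60 and 0.90 (1.68-fold). Among all probes 8.18% were below 0.75-fold in that comparison, and the difference between the lists was not tested.

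At 6 h after PMCAO, 5.41% of all probes were above 1.5-fold with PACAP38 and 6.9% below 0.75-fold. There 4 of the 23 factors and 3 of the 17 effectors were above and 0 below, with medians of 0.35 and 0.25. On both arrays these were Gem at 1.08 and 0.99, Inhba, the activin subunit, at 0.97 and 1.05, and Atf3, a stress-induced factor, at 0.67 and 0.68. In sham mice 1 of the 23 factors was above at 6 h and 0 at 24 h, beside 3.98% and 1.75% of all probes. At 24 h 1 of the 17 effectors was below in sham mice, beside 3.87% of all probes.

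Against sham at 6 h, 12 of the 23 factors were above 1.5-fold and 2 below 0.75-fold with saline, where 32% and 20.7% of all probes were, and 18 and 0 with PACAP38, beside 31.4% and 16.5%. At 24 h it was 15 and 2 with saline, beside 9.56% and 13.3% of all probes, and 5 and 6 with PACAP38, beside 6.39% and 8.19%. Atf3 was highest in each, at 26.3-fold and 35.5-fold of sham at 6 h (saline, then PACAP38) and at 20.4-fold and 11.9-fold at 24 h. Maff, a small Maf factor, was at 11.9-fold with saline and 6.97-fold with PACAP38 at 24 h, and Zfp36, which destabilizes cytokine mRNAs, at 10.3-fold and 4.25-fold. Fosb was at 8.03-fold and 8.80-fold at 6 h. Of the 17 effectors 12 and 13 were above at 6 h with 0 below, and at 24 h 8 above and 2 below with saline and 4 above and 2 below with PACAP38. The Egr, Nr4a and Arc genes with saline at 24 h lay on the other side, 0 of 10 above and 7 below. The lowest on the lists were Rxrg at 0.331-fold, Pcsk1, a prohormone convertase, at 0.647-fold and Homer2 at 0.651-fold with saline at 24 h. With PACAP38 at 24 h, Dusp6, the ERK phosphatase, was at 0.563-fold, Fos at 0.563-fold and Elk4, a ternary complex factor, at 0.565-fold, and Elk4 was also the lowest with PACAP38 at 6 h at 0.569-fold. Cyr61 with PACAP38 at 6 h was at 7.93-fold and Zfp36 with saline at 6 h at 5.19-fold. Of the 14 partners 2 were above and 2 below with saline at 6 h, 0 and 4 with PACAP38 at 6 h, and 0 and 2 with each injection at 24 h. Of the synaptic partners 4 of 10 were below with saline at 24 h and 0 with PACAP38.

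**Figure D4:**
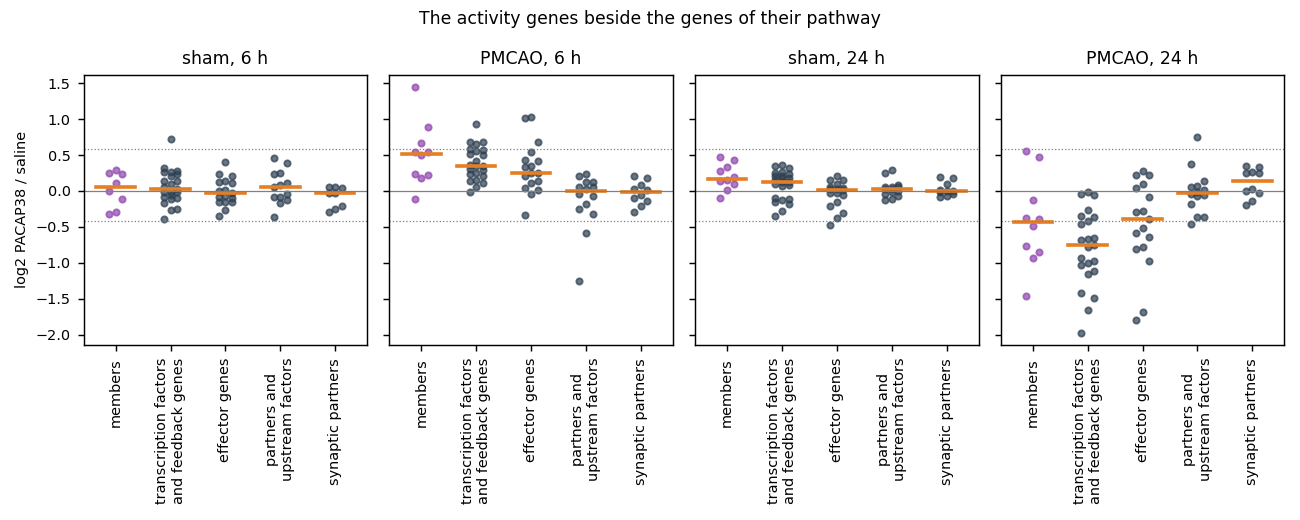
Log2 PACAP38 over saline in the 4 comparisons for the 10 activity genes (members) beside the 4 lists of related genes; each point is 1 gene with a value, the bar is the list's median and the dotted lines are 0.75-fold and 1.5-fold. With PACAP38 in PMCAO mice at 24 h the medians are -0.44 for the activity genes, -0.75 for the other factors and -0.39 for the effectors, and near 0 for the partners.

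Markers of some other cell types moved in the same comparison, PMCAO mice at 24 h, where 2.99% of all probes were above and 8.18% below. The 6 olfactory bulb markers were all below 0.75-fold with PACAP38, with a median of -2.16 (S100a5 -4.42, Tbx21 -2.73, Eomes -2.64), although the bulb was to be removed. Their summed level was 3.91 in the saline pool and 1.54 in the PACAP38 pool, beside 1.28 to 2.64 in the other 6 pools, and 2 of the 6 were well above background in all channels. Of 6 neutrophil markers 4 were below (S100a9 -3.08, S100a8 -2.91), with a median of -1.39. Their summed level was 49.8 with saline and 5.94 with PACAP38, while Elane and Camp were never well above background. Of 5 endothelial markers 4 were below with a median of -0.47, and of 9 markers of striatal medium spiny neurons 4 were above with a median of 0.51. Of the general neuron markers, 0 of 8 were past either threshold, with a median of 0.03 and summed levels of 169 with saline and 173 with PACAP38. Of 8 cortical excitatory markers 1 was above and 1 below, with a median of 0.35. Other lists moved less: 0 of 5 astrocyte and 0 of 6 thalamus markers were past a threshold. Below were 1 of 7 microglia and macrophage, 1 of 5 choroid plexus and 1 of 5 erythrocyte markers. Of 6 cerebellar neuron markers 1 was above, and of 7 pituitary markers 2 were above and 2 below. In sham mice at 6 h olfactory bulb markers also differed, 4 of 6 above with a median of 1.40, in a comparison that holds the array that stood apart. At 6 h after PMCAO, 3 of 6 cerebellar neuron markers were above (median 0.55, Gabra6 highest at 5.72). So were 3 of 6 olfactory bulb markers (median 0.58) and 2 of 6 neutrophil markers (median 0.55), with 0 below in each. Among all probes 5.41% were above and 6.9% below in that comparison, and 3.98% above in sham mice at 6 h. The part of these cell types in the values of the activity genes was not tested.

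The genes most like the family in pattern were sought among 5017 probes with a symbol that were well above background in all channels and varied by at least 1 on the log2 scale. The measure was Pearson's r over the 8 pools against the mean of the 7 members well above background in all channels and with an unmarked value in every pool (not Arc and Homer1), after centring each time. The 5 highest were B230215L15Rik (0.952), A330068P14Rik (0.941), 4933409K07Rik (0.932), 4631423F02Rik (0.914) and the platelet glycoprotein gene Gp9 (0.901). Of the members themselves, Nr4a1 had an r of 0.957 with that mean, Egr4 of 0.941, Egr1 of 0.933, Egr2 of 0.814, Nr4a2 of 0.690, Egr3 of 0.594 and Npas4 of 0.527, each being part of the mean. With 8 pools on 2 slides and 5017 candidates these values are a description of rank and nothing more.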

How the data were processed

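Agilent 4 x 44K whole mouse genome arrays (2 colours, probes placed on mm7) were analysed, 8 in all. The authors pooled RNA of 3 mice per group (300 ng each, 900 ng per labeling) and hybridized each pair of pools on 2 dye-swapped arrays. Per the file headers, Agilent Feature Extraction 9.5.1.1 (6 h) and 9.5.3.1 (24 h) read the images. The authors deposited, per spot, the software's log10 ratio of red over green after background subtraction and dye normalization, the mean, background and processed intensity of each channel, and flags. They also deposited a table that holds a linear ratio of PACAP38 over saline for arrays with PACAP38 in Cy5. For the exchanged dyes the deposited table holds a score, the software's ratio made negative. The labels number the arrays of a comparison as pools 1 and 2, the methods describe the same RNA, and they were counted as 1 replicate. Second copies of 3 arrays were identical and not used.

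PACAP38 over saline was the log ratio turned to one direction, on the log2 scale, averaged over arrays, without control spots and spots flagged as outliers. PMCAO over sham was the same-dye difference of log2 processed signal minus the channel's 75th percentile over all probes, averaged over dyes. Thresholds (1.5-fold and 0.75-fold) follow the methods. A gene's primary probe had the highest mean signal. Fits used limma 3.58.1 in R 4.3.3, with Benjamini-Hochberg adjustment over all probes, and the rest used Python 3.11.15. The fits were also run on simulated data with independent noise. Such data lack the errors shared by differences from the same arrays, so that run cannot show how the fits behave under them. The number of pools limits the precision. Members, gene lists and marker lists were chosen with earlier results of these data known. All members were named, and from the lists the 3 highest and 3 lowest genes past a threshold on both arrays. Alternatives were normexp with loess and Aquantile, median scaling, the deposited table, a filter on dim probes, the mean of all probes, other threshold rules and leaving out arrays or pairs. Keeping marked spots in PMCAO over sham and in the fits, and a percentile over unmarked spots, were added after the data were seen. Promoter sequences are from RefSeq, GRCm38.p6.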

Additional observations from a re-analysis of the deposited data

Results flagged for a closer look

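With PACAP38 over saline, both arrays of 1 comparison lay above 0 and both of another below it, with 1 side past the threshold on both arrays. Between sham and PMCAO mice at 24 h this held for Egr2 (PMCAO lower than sham by -1.93 on the log2 scale), Nr4a1 (-1.37), Egr1 (-1.09) and Egr4 (-0.68). Between 6 h and 24 h in PMCAO mice it held for Egr2 (24 h minus 6 h -2.13), Egr1 (-1.31) and Npas4 (-1.07). None of these differences was tested, since each side is 1 pair of pools, and the differences between the times cannot be told apart from the slides.

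In PMCAO over sham, the change from 6 h to 24 h passed in the limma fit for Npas4 (-3.16, adjusted p of 0.0128), the dim second Egr3 probe (-2.28, adjusted p of 0.0136; -0.28 and 0.0418 after normexp and Aquantile) and the second Homer1 probe (-1.13, adjusted p of 0.0230). None of the 3 passed without replicate 2, where the changes were as large or larger, at -3.22, -3.35 and -1.32, and the limma adjusted p was 0.0531, 0.144 and 0.197.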

How the results depend on the processing

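No paired analysis was possible because the replicate numbers mark only the dye orientation of 2 arrays of the same RNA, which were averaged before the fits. Without either array the median log2 PACAP38 over saline of the genes was -0.57 to -0.38 in PMCAO mice at 24 h (main -0.44), 0.31 to 0.69 in PMCAO mice at 6 h (0.52), 0.23 to 0.26 in sham mice at 24 h (0.17) and 0.005 to 0.19 in sham mice at 6 h (0.05; -0.085 with marked spots kept). The member probes past a threshold were then 7 to 8 (main 6), 2 to 4 (3; 1 when past on both arrays), 0 to 1 (0) and 1 to 2 (0; 1 in the deposited table). For PMCAO over sham the median without either orientation was -0.60 to 0.38 with saline at 6 h (0.10), 0.68 to 0.98 with PACAP38 at 6 h (0.98; 0.65 with normexp and Aquantile, 0.51 with marked spots kept), -0.54 to -0.50 with saline at 24 h (-0.52) and -0.98 to -0.89 with PACAP38 at 24 h (-0.93; -1.05 with the mean of all probes). The probes past a threshold were 4 to 5 with saline at 6 h (5; 3 with marked spots kept, 1 in both dyes), 5 to 6 with PACAP38 at 6 h (7; 3 in both dyes), 8 to 10 with saline at 24 h (10; 5 at 1.5-fold either way) and 10 to 11 with PACAP38 at 24 h (9). Egr3 and Egr4 with PACAP38 at 6 h turned to -0.028 and -0.018 with marked spots kept, since the marked dye then entered.

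In the limma fits, leaving out an orientation or a pair gave 1 to 4 member probes past 0.05 for PMCAO over sham at 6 h (main 3), 0 to 2 at 24 h (0; 1 with normexp and Aquantile, 1 with dim probes left out), 1 to 3 for the mean of both times (1; 2 with normexp and Aquantile, 2 with dim probes left out, 2 with median scaling, 3 with marked spots kept, 3 with the percentile over unmarked spots), 0 to 3 for the change between the times (3) and 0 for PACAP38. At 6 h, median scaling moved PMCAO over sham of every probe measured in both dyes by -0.28 with saline and -0.26 with PACAP38, and the percentile over unmarked spots by -0.38 and -0.37, so that the median of all probes went from 0.25 and 0.30 to -0.02 and 0.05, and to -0.13 and -0.06. Apart from the values given here, the cause was not tested. Of the values of single genes from 2 arrays or dyes, 296 stayed within their spread under an alternative and 25 moved by more. The spread was the SD of the 2, and leaving 1 out always moves the mean by less than that. At 24 h no member spot was marked, so keeping marked spots changed nothing there. The count of 296 holds these cases and does not measure how stable the values were. Of the single-gene values from 1 array or dye, which have no spread, 15 did not change, 54 changed and 2 reversed. The 15 were cases in which the array or dye left out held no value. No depth is known for arrays; the second Egr3 probe and Nr4a3 were limited by background.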
